A study of Mus musculus with 39 samples.

Results

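The weaker intergenic BCL6 peaks are sites in the authors' list of BCL6 binding in mouse brown fat that were annotated as intergenic and carried a peak score below 10, so they were chosen by 2 deposited values, the annotation and the score. They numbered 924 of 3022 peaks, or 30.6% of the list, and 133 further intergenic peaks had a score of at least 10. The list came from 1 ChIP-seq library of interscapular brown fat from Cre-negative mice kept at 30 °C, so no peak has a replicate. RNA was measured in the same depot as 16 libraries in 4 groups of 4. All mice were male C57BL/6J animals with a BCL6-floxed allele, and the labels used here give no ages. The control groups carried no Cre and were housed at 22 °C or at 30 °C. The other mice also carried UCP1Cre, a Cre recombinase driven by the promoter of the brown adipocyte gene Ucp1, and were housed at the same temperatures. These are called Cre-labelled here, because Bcl6 RNA went against the label. It read 764 to 1838 normalised counts in controls and 2671 to 3927 in Cre-labelled libraries at 22 °C, and 1020 to 2340 against 3269 to 5159 at 30 °C. Bcl6 was higher with the Cre label by 1.70 on the log2 scale at 22 °C (limma adjusted p = 8.25e-04) and by 1.32 at 30 °C (limma adjusted p = 0.00438). Which exons Cre removes is not stated in the labels, so this check does not show whether the protein was lost, and Bcl6 was the nearest gene of 0 peaks in the list.

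BCL6 is a zinc finger transcriptional repressor known from germinal centre B cells, where it holds down genes of activation and differentiation. It recruits corepressors to DNA and recognises sequences that resemble those bound by STAT factors. In fat it has been linked to lipid handling, insulin action and the upkeep of brown adipocyte identity. Sites far from promoters can act as enhancers or silencers of a gene at a distance, and part of any ChIP-seq list of weak sites lies in repeated DNA left by transposable elements. The gene with the nearest transcription start is a conventional label for such a site and is not evidence that the site acts on that gene.

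Few of these peaks overlapped a sequence available here. Those few could be read only because they lie in a promoter window, so they need not resemble the other peaks. RefSeq promoter windows (assembly GRCm38.p6, the build named mm10) covered some or all of 16 of the 924 peaks, nearly all at starts of predicted RNAs whose symbols begin with Gm. Below are 3 peaks read in full and 1 read in part, on the plus strand and 5′ to 3′, with positions as deposited and both ends included. They are shown to set a peak that holds BCL6-like motifs beside a stronger one without them, a weak one without them and the weak peak upstream of Acot11, which is described further on. Capitals mark matches to TTCNNNGAA, a spaced palindrome shared by BCL6 and STAT sites, searched on both strands.
Scel upstream peak, chr14:103463792-103463972, score 5.54: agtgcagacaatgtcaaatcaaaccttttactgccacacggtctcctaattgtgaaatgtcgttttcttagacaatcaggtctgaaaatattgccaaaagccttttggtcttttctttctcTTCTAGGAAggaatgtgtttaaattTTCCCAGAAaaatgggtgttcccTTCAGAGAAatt
Igsf3 upstream peak, chr3:101354672-101354852, score 9.12: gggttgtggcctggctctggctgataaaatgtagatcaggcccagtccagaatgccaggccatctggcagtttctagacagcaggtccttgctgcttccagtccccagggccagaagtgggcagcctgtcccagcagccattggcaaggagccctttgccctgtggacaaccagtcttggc
Mapkapk2 upstream peak, chr1:131112588-131112768, score 4.47: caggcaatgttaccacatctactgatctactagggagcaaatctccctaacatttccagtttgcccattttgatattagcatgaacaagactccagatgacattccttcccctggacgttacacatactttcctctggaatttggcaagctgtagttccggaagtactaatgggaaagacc
Acot11 upstream peak, chr4:106840287-106840411 (first 125 of its bases), score 4.11: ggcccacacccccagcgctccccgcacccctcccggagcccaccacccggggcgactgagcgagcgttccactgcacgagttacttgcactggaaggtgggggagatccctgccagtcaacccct

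The Scel peak held 3 matches, and 2 of them also fitted TTCCNNGAA, a narrower form that lies inside the first motif. The narrower form was matched in either orientation. The Igsf3, Mapkapk2 and Acot11 stretches held neither motif. Of the 9 peaks with 160 bases or more to read, 1 held each motif, the Scel peak. Over the first 181 bases of 32851 RefSeq promoter windows, 5.28% held TTCNNNGAA and 3.0% held TTCCNNGAA. A match is only a match of letters, and its absence says nothing about the factor. The Scel peak lay 49.5 kb upstream of Scel, which was not among the nearest genes kept in the RNA data. Guanine and cytosine made up 37.0% of its bases and 69.6% of the Acot11 stretch.

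Peak scores were low and bunched at the bottom of their range. They ran from 4.11 to 9.83 with a median of 4.83, took 33 distinct values spaced 0.17 to 0.18 apart, and 150 peaks shared the lowest value. The lowest 3 values together held 348 peaks, or 37.7%. Scores under 5 made up 51.2% of the peaks, scores under 6 made up 75.9%, and scores under 8 made up 92.4%. Just inside the threshold, at 9.83, stood peaks near Rsad2, Fam50b, Mis18a, Nrep and Mettl15. Just outside it stood peaks near Pabpc2 and Dapl1 at 10.0 and near Optc and Socs5 at 10.2. The score is the authors' value, it chose the peaks, and the labels and header do not state its scale. The focus ratio, the fraction of a peak's reads that lie close to its centre, had a median of 0.732, against 0.833 in the stronger intergenic peaks.

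Most of the peaks lay far from the nearest transcription start. The distance had a median of 33.5 kb (quartiles 13.4 and 91.2 kb) and ran from 1009 to 1590910 bases. In the stronger intergenic peaks the median was 51.8 kb (quartiles 19.2 and 113 kb). A share of 9.96% lay 1 to 5 kb from a start (exact binomial 95% interval 8.10 to 12.1%), and 7.90% lay at 5 to 10 kb. The class of 10 to 50 kb held 43.1% (39.9 to 46.3%), against 34.6% (26.6 to 43.3%) of the stronger peaks, and these intervals overlap. Another 15.9% lay at 50 to 100 kb, 20.3% (17.8 to 23.1%) at 100 to 500 kb and 2.81% beyond 500 kb. The stronger peaks had 28.6% (21.1 to 37.0%) at 100 to 500 kb. Of the weaker peaks 592, or 64.1%, lay upstream of the nearest start, against 53.4% of the stronger ones. No interval was computed for the upstream shares. Intron and promoter peaks carry other annotations, so the label intergenic leaves out many positions downstream of a start and those beside it. The intervals treat peaks as separate counts and cover counting error only.

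**Figure D1:**
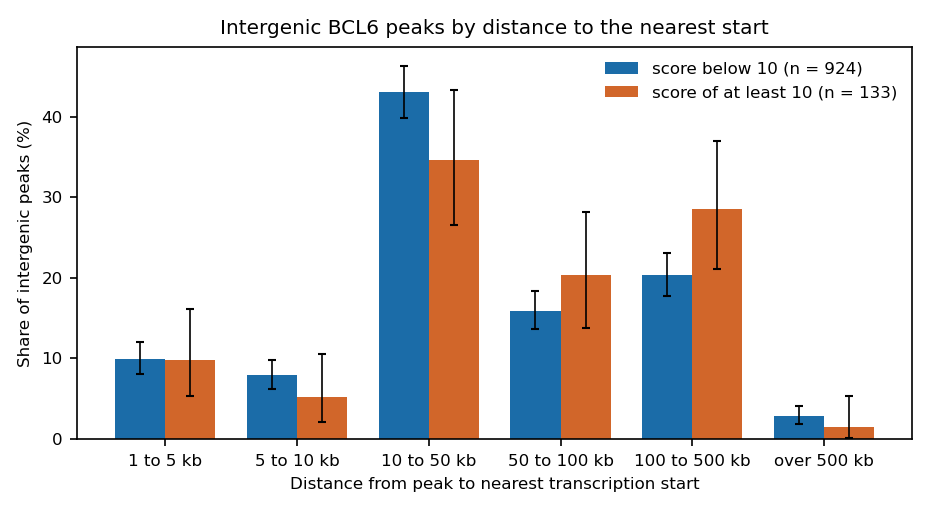
Share of intergenic BCL6 peaks (%, vertical axis) in 6 classes of distance to the nearest transcription start, for the 924 peaks with a score below 10 (blue) and the 133 with a score of at least 10 (orange). Bars start at 0 and error bars are exact binomial 95% intervals; the weaker peaks hold 43.1% in the class of 10 to 50 kb and the stronger ones 34.6%, with overlapping intervals.

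The extremes of the distance show what the label intergenic covers. The closest peak lay 1009 bases upstream of Rfc4, which encodes a subunit of the DNA polymerase clamp loader, inside an endogenous retrovirus of the type ERV3-16A3_I-int and 559 bases from a promoter peak. Next came peaks 1022 bases upstream of Cep70, a centrosomal protein, 1072 bases upstream of Tmem170b, 1154 bases upstream of the zinc finger gene Zscan2 and 1160 bases upstream of Wnt8b. The farthest 2 lay 1590910 and 1335207 bases downstream of the start of Pcdh9, a protocadherin of nerve cells. Another lay 1154363 bases upstream of Cox7c, a cytochrome c oxidase subunit, in a LINE of the type Lx. A RefSeq gene span covered 248 of the peaks (26.8%) although the authors' annotation called them intergenic, and a protein-coding one covered 59. Among the 248 were the peaks named above for Cep70 and Zscan2, each overlapping the RefSeq span of that same gene.

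The 924 peaks were assigned to 801 genes, and 691 of these had a single weaker intergenic peak. A further 98 genes had 2, 11 had 3 and 1 had 4. The nearest gene was protein-coding for 711 peaks, non-coding for 196 and a pseudogene for 17. The gene with 4 peaks was Macroh2a3, whose peaks lay 109 to 579 kb upstream and which was not kept in the RNA data. Insr, the insulin receptor, had 3 peaks at 9244, 18937 and 22704 bases upstream of its start, with scores of 5.36, 5.36 and 4.83. All 3 lay in transposable elements, a LINE of the type Lx10 and 2 retroviral repeats, MT2A and RMER15. Other genes with 3 peaks were Adam11, Agtr1a (an angiotensin receptor), Ccnl1 (a cyclin tied to splicing), Ly86 (a partner of a myeloid toll-like receptor) and Pcdh9. Of the 801 genes, 114 (14.2%) had another BCL6 peak as well, 75 of them in an intron and 15 at a promoter. A second peak of any kind lay within 10 kb of 74 of the 924 peaks (8.01%), and the median distance to the nearest other peak was 142 kb. The values for peaks placed at random were not computed, so these do not show whether the peaks are spread out or clustered.

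Repeated DNA held 171 of the peaks, 18.5% (exact binomial 95% interval 16.1 to 21.2%). The share was 17.3% (11.3 to 24.8%) in the stronger intergenic peaks and 12.5% (10.6 to 14.6%) in the weaker intron peaks, whose interval does not meet that of the weaker intergenic peaks. These are descriptions of 1 list, without a test. The share of the mouse genome in repeats was not analysed here, and no label states how the authors treated reads that map to several places. LTR elements, the remains of retroviruses, held 74 peaks (8.01%, against 6.77% of the stronger intergenic and 3.89% of the weaker intron peaks). LINEs, autonomous retroelements, held 54 (5.84%, against 5.26% and 3.43%). SINEs held 22, DNA transposons 11 and simple repeats 8, and 1 peak each lay in a tRNA repeat and a satellite. CpG islands held 17 peaks (1.84%).

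**Figure D2:**
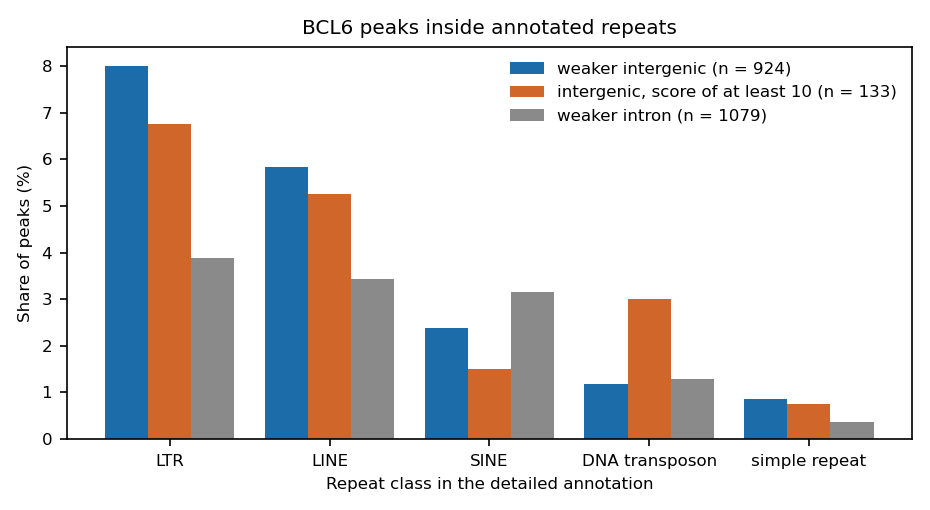
Share of peaks (%, vertical axis, from 0) whose detailed annotation names a repeat of each class (horizontal axis), for weaker intergenic peaks (blue), intergenic peaks with a score of at least 10 (orange) and weaker intron peaks (grey). LTR elements hold 8.01% of the weaker intergenic peaks, 6.77% of the stronger ones and 3.89% of the weaker intron peaks.

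Within the repeats, the L1 family of LINEs held 50 peaks and the LTR families ERVL-MaLR and ERVL held 27 and 23. ERVK held 12 peaks and ERV1 11, and the median score was 6.61 in ERV1 against 4.65 in L1. The single elements named most often were MT2A with 7 peaks, L1_Mus3 with 6 and L1_Mus1 and ID_B1 with 5 each. Peaks in LINEs lay farther from a start (median 46.0 kb) than peaks in LTR elements (26.3 kb), DNA transposons (19.0 kb) or SINEs (18.5 kb). Score and repeats moved little together. Peaks with a score under 5 had 19.2% in repeats and a median distance of 33.5 kb, and peaks with a score of 5 to under 10 had 17.7% and 33.5 kb.

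The nearest genes were expressed in brown fat more often than the genes of the table at large. Of the 801, 774 were in the RNA table, 111 were listed at 0 in all 16 libraries, and 493 had a mean normalised count of at least 10 and were tested. That is 63.7% of those in the table, against 54.6% of all 24116 entries. The others in the table were too low to test and enter no count of differences. Among genes tested, the median of the group means was 342 in controls at 30 °C, against 269 over all 13176 genes tested, and it was 372 against 272 in Cre-labelled libraries at 30 °C. At 22 °C it was 328 against 268 in controls and 340.5 against 270.2 in Cre-labelled libraries. Library totals of normalised counts ran from 10122739 to 13516936 at 22 °C and from 8867615 to 9975035 at 30 °C, without overlap. Raw depth is unknown. In whole tissue, fewer cells of a type and less RNA per cell cannot be told apart. Whether libraries of 1 group are separate animals is not labelled, and the p-values therefore measure only the spread between these samples, which may be technical.

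At 30 °C, the temperature of the ChIP, nearest genes differed by Cre label somewhat more often than genes at large, and in both directions. The rule for named genes, which asks for a passed test, no overlap between groups and an average of 100 or more in whichever group is higher, put Acot1, Lrrn4 and Adamts15 first among genes higher in Cre-labelled libraries, by 2.55 to 4.47 on the log2 scale. Among genes that were lower it put Acot11, Radil and Dmrt2 first, at -1.76 to -1.49. Of the 493 genes, 42 were higher (8.52%) and 46 lower (9.33%) at a limma adjusted p under 0.05. Over all 13176 genes, 5.65% were higher and 6.85% lower, or 12.5% in either direction against 17.8% of the nearest genes. The median log2 difference was 0.04, against 0.01 over all genes, and the shares were compared without a test. Groups did not overlap in 125 of the 493 genes (25.4%), against 22.9% of all. The count of lower genes was unstable: it was 30 without control library 1, 26 without control library 4, 28 without Cre-labelled library 1 and 30 without Cre-labelled library 3, all at 30 °C. Without Cre-labelled library 1 the count in either direction was 58, and without the 2 libraries with the fewest genes above 0, both at 22 °C, it was 136. A refit changes the calls of all genes, and the share over all genes in these refits is not given here. These counts therefore do not show whether the excess over all genes changed.

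Acot1, a cytosolic acyl-CoA thioesterase that frees fatty acids from coenzyme A, had its peak 11.3 kb downstream of its start. It read 7.57, 25.1, 2.49 and 1.08 normalised counts in the control libraries at 30 °C and 98.2, 161, 243 and 99.4 in the Cre-labelled ones, so the groups did not overlap. The difference was 4.47 ± 0.59 (log2, SE, limma adjusted p = 1.03e-04). Acot1 has close paralogs beside it on chromosome 12, so reads may have been divided between them, and another BCL6 peak was also assigned to it.

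Lrrn4, a membrane protein with leucine-rich repeats, had a peak 13.2 kb upstream and another BCL6 peak besides. Its levels were 44.6, 53.3, 42.6 and 57.2 in controls and 271, 440.0, 244 and 346 in Cre-labelled libraries. Every Cre-labelled library was above every control, and the difference was 2.67 ± 0.22 (limma adjusted p = 9.85e-07). Adamts15, a secreted protease of the extracellular matrix, had 2 weaker intergenic peaks, the nearer one 111 kb downstream. It read 43.4, 53.3, 53.1 and 42.0 against 201, 269, 239 and 505, a difference of 2.55 ± 0.30 (limma adjusted p = 3.07e-05), without overlap.

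Inhbb, the beta B subunit of activin and inhibin, lay 122 kb from its peak. Its controls read 43.9, 55.4, 39.0 and 41.7, and its Cre-labelled libraries 150.3, 174, 188 and 188, higher by 1.94 ± 0.39 (limma adjusted p = 0.00326). Cd83, an immunoglobulin-like surface protein of activated immune cells, had a peak 79.6 kb downstream and another BCL6 peak besides. It read 45.2, 61.7, 50.4 and 48.1 in controls and 194, 110.5, 218 and 179.6 in Cre-labelled libraries. That is 1.72 ± 0.20 higher (limma adjusted p = 3.07e-05), and the groups did not overlap.

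Mpeg1, a pore-forming protein of macrophages, had its peak 15.5 kb upstream in a LINE of the type Lx9. Levels were 427, 309.5, 357 and 335 in controls and 1554, 957, 608 and 2118 in Cre-labelled libraries, a rise of 1.73 ± 0.29 (limma adjusted p = 8.94e-04). Mpeg1 is itself among the 20 macrophage markers, of which 15 were higher and 0 lower, against 5.65% and 6.85% of all genes. The summed level of the markers, Mpeg1 included, was 4435 to 5601 in controls and 7623 to 21058 in Cre-labelled libraries. Of the markers, 0 were at 0 in every library. The part of macrophage content in the results for Mpeg1 and Cd83 was not tested.

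**Figure D3:**
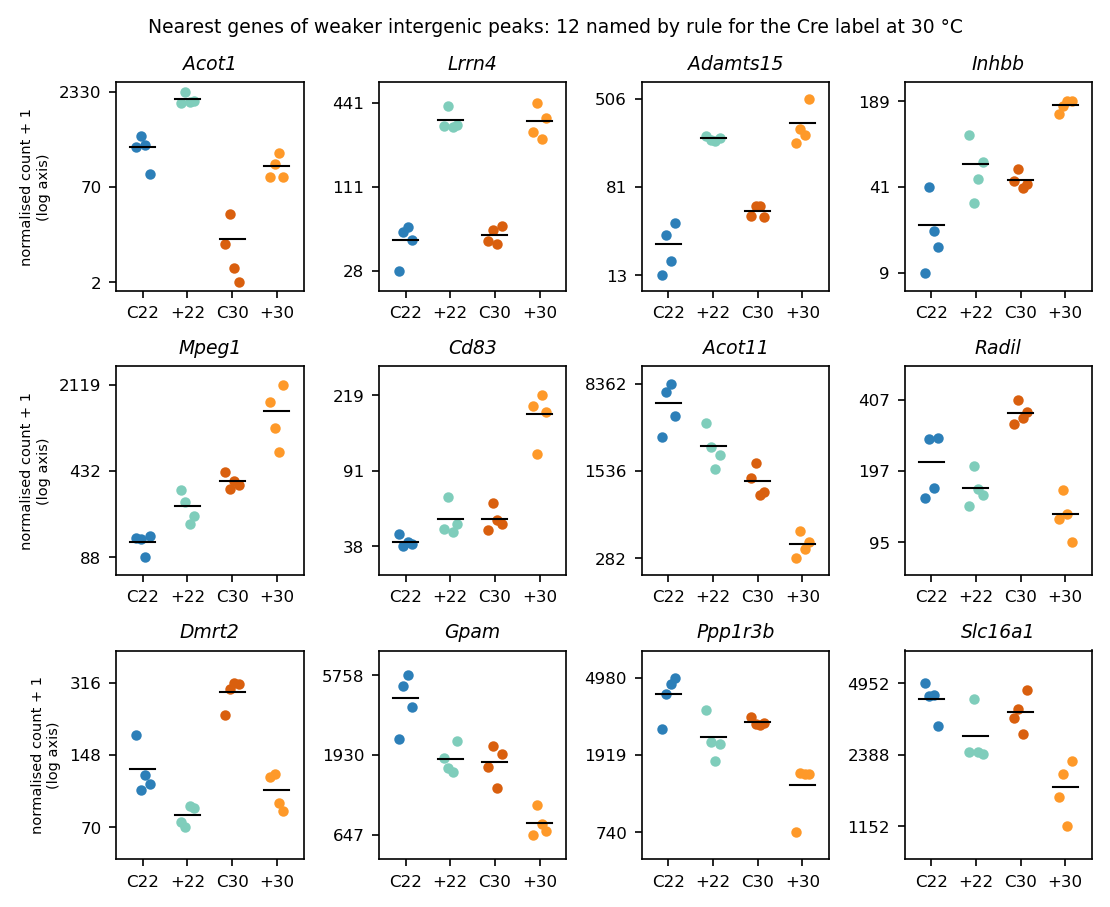
Normalised count + 1 on a logarithmic axis in each of the 16 libraries (points) with the group mean (line) for the 12 genes that the rule named for the Cre label at 30 °C, 6 higher and then 6 lower; C22 and C30 are controls at 22 and 30 °C, and +22 and +30 are Cre-labelled libraries. All 12 genes have no overlap between C30 and +30, and Acot1 falls from 299.6 to 9.06 on average between 22 and 30 °C in controls.

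Of the genes that the rule named as lower, Acot11 differed most. It encodes a thioesterase first described in brown fat, and its 2 weak peaks included the one printed above, 35.4 kb upstream with the lowest score of the list. The controls read 1339, 1775, 969 and 1012 and the Cre-labelled libraries 281, 481, 333 and 389. It fell by 1.76 on the log2 scale (SE 0.31, limma adjusted p = 0.00121), without overlap.

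Radil, a partner of the small GTPase Rap1, had a peak 4957 bases upstream in the LTR element RLTR28. Its levels were 318, 406, 338 and 357 in controls and 119.7, 162, 126 and 94.4 in Cre-labelled libraries, a difference of -1.51 ± 0.21 (limma adjusted p = 1.55e-04). Dmrt2, a transcription factor of the doublesex family, had 2 peaks, the nearer one 10.5 kb downstream. It read 225, 296, 315 and 312 against 116, 121, 89.3 and 81.4, a difference of -1.49 ± 0.19 (limma adjusted p = 6.42e-05). Neither gene's groups overlapped.

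The other 3 genes named as lower serve energy metabolism. Gpam, the mitochondrial enzyme that starts glycerolipid synthesis, read 1636, 2189.8, 1218 and 1947 in controls and 646, 968, 746 and 682 in Cre-labelled libraries, with its peak 261 kb downstream. Ppp1r3b, which brings a phosphatase to glycogen, read 3049, 2805, 2773 and 2837 against 739, 1538, 1518 and 1519, with its peak 170.3 kb upstream. Slc16a1, a transporter of lactate and ketone bodies, read 3469, 3814, 2959 and 4627 against 1550.5, 1976, 1151 and 2236, with 2 peaks, the nearer one 22.0 kb downstream. The differences were -1.18 ± 0.24, -1.17 ± 0.24 and -1.13 ± 0.22 (limma adjusted p = 0.00342, 0.00399 and 0.00262), and none of the 3 overlapped between groups.

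The counts at 30 °C varied with what else was known of a peak, in splits that were chosen after values had been seen. For the 107 genes whose nearest weaker peak lay within 10 kb of the start, 12 were higher and 15 lower (25.2%). The share was 14.8% of 229 genes at 10 to 50 kb, 15.8% of 76 at 50 to 100 kb and 18.5% of 81 beyond 100 kb. At 22 °C the order was another, with 13.1% within 10 kb, 14.0% at 10 to 50 kb, 7.89% at 50 to 100 kb and 21.0% beyond 100 kb. Of the 407 genes with no other BCL6 peak, 27 were higher (6.63%) and 39 lower (9.58%). Of the 86 that had another peak as well, 15 were higher (17.4%) and 7 lower (8.14%). Genes nearest to the stronger intergenic peaks, 74 of which were tested, had 19 higher (25.7%) and 2 lower (2.70%). Among genes with a weaker peak scoring at least 6, 20 of 140 were higher (14.3%) and 11 lower (7.86%). Among those with lower scores only, 22 of 353 were higher (6.23%) and 35 lower (9.92%). Genes of peaks in repeats had 5 higher (5.26%) and 8 lower (8.42%) of 95. Those shares were near the 5.65% higher and 6.85% lower over all genes, or 12.5% in either direction. Among genes with a mean of at least 100, 34 higher and 42 lower of 384 nearest genes (19.8%) stood beside 557 higher and 750 lower of 9534 (13.7%). No test was run of the differences between these sets.

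**Figure D4:**
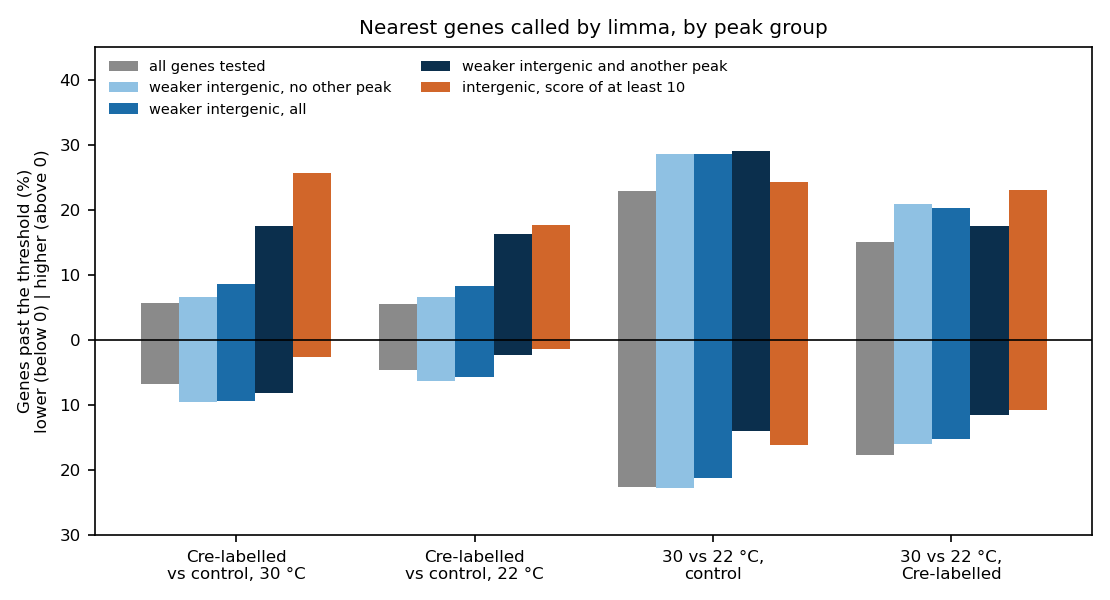
Share of tested genes (%) that were higher (above 0) or lower (below 0) at a limma adjusted p under 0.05 in 4 comparisons, for all genes (grey), nearest genes of weaker intergenic peaks with no other BCL6 peak (light blue), all of them (blue), those with another peak (dark blue) and genes nearest to intergenic peaks with a score of at least 10 (orange). At 30 °C by Cre label the stronger peaks' genes stand at 25.7% higher and 2.70% lower, and the weaker peaks' genes at 8.52% and 9.33%.

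At 22 °C the Cre label went with a similar modest excess, here mainly of higher genes. Adamts15, Lrrn4, Acot1 and Strip2 were the genes the rule named as higher, and Dhrs9, Phlda1, Hoxc4 and Hsd17b12 were lower. In all, 41 genes were higher (8.32%, against 5.51% of all genes) and 28 lower (5.68%, against 4.69%), or 14.0% in either direction against 10.2%. The 86 genes with another BCL6 peak held 14 of the higher and 2 of the lower genes, and the 407 without one had 27 higher (6.63%) and 26 lower (6.39%). The median difference was 0.03, against 0.00 for all genes. Groups did not overlap in 76 of 493 genes (15.4%, against 12.4% of all), 48 of them higher and 28 lower, against 6.38% and 6.06% of all genes. Without control library 3 at 22 °C the count was 43, of which 15 were lower, and with the 22 °C groups fitted alone it was 30. The share over all genes in these refits is not given here either. Of the 493 genes 31 passed at both temperatures (6.29%), all 31 in the same direction, beside 609 of all genes (4.62%), of which 603 had the same direction. These 2 comparisons share no library, though they share the estimate of spread.

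Adamts15 read 11.9, 28.6, 16.4 and 37.0 in controls at 22 °C and 234, 214, 211 and 223 in Cre-labelled libraries, higher by 3.30 ± 0.30 (log2, SE, limma adjusted p = 2.20e-06). Lrrn4 read 26.9, 51.9, 56.8 and 45.4 against 302, 415, 297 and 308, a difference of 2.88 ± 0.22 (limma adjusted p = 7.00e-07). Acot1 read 297, 461, 328 and 113 against 1506, 2329, 1575 and 1657, a difference of 2.70 ± 0.59 (limma adjusted p = 0.00746). All 3 were free of overlap at both temperatures. Strip2, part of a kinase and phosphatase complex, had a peak 2694 bases upstream with a score of 9.3, in a DNA transposon of the type MER20, and 2 other BCL6 peaks. Its values were 46.0, 43.4, 56.5 and 97.2 in controls and 224, 200.4, 204 and 187 in Cre-labelled libraries, higher by 1.80 ± 0.21 (limma adjusted p = 3.94e-05).

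Hsd17b12, an enzyme of fatty acid elongation, had a peak 20.5 kb upstream and was lower at both temperatures. At 22 °C it read 5104, 6074, 5811 and 5199 in controls and 2412, 2602, 2026 and 2690.2 in Cre-labelled libraries, a difference of -1.19 ± 0.10 (limma adjusted p = 1.17e-06). At 30 °C it read 1869, 1745, 1634 and 1771 against 935, 1003, 990.3 and 1049.5, a difference of -0.82 ± 0.10 (limma adjusted p = 4.72e-05). The 4 groups did not overlap at all, and both the Cre label and the warmer housing went with lower values.

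Dhrs9, a dehydrogenase of retinoids and steroids, lay 4211 bases from its upstream peak. It read 78.9, 239.9, 151 and 89.5 in controls and 10.0, 26.3, 20.6 and 38.9 in Cre-labelled libraries at 22 °C, a difference without overlap (-2.50 ± 0.55, limma adjusted p = 0.00777). Hoxc4, a homeobox gene of body position, read 212, 298, 147 and 160.1 against 73.0, 76.2, 82.9 and 105 (-1.23 ± 0.20, limma adjusted p = 9.49e-04). Phlda1, a pleckstrin homology protein, read 134, 86.6, 345 and 100.1 against 61.0, 15.3, 60.7 and 40.6 (-1.83 ± 0.47, limma adjusted p = 0.0215). Its high control value came from 1 library. The Phlda1 call was lost without control library 3, without the 2 sparsest libraries and with only the compared groups fitted.

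Housing temperature went with differences in about as many nearest genes as genes at large, but the balance leaned toward higher values in the warm. Dlk1, Strip2 and Adam11 were higher at 30 °C in controls, and Acot1, Noct, Acot11 and Pmepa1 lower. In control libraries 141 genes were higher at 30 °C (28.6%, against 22.9% of all genes) and 105 lower (21.3%, against 22.7%), or 49.9% against 45.5%. In Cre-labelled libraries 100 were higher (20.3%, against 15.0%) and 75 lower (15.2%, against 17.7%), or 35.5% against 32.7%. The medians were 0.11 and 0.09, against 0.04 and 0.02 over all genes. Among genes with a mean of at least 100, 98 of 384 nearest genes were higher in warm controls (25.5%, against 18.0% of 9534) and 93 lower (24.2%, against 28.6%). Groups did not overlap for 42.4% and 34.5% of the nearest genes in the 2 comparisons, against 41.2% and 34.5% of all genes.

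Dlk1, an inhibitor of fat cell formation, had a peak 54.7 kb upstream. Controls read 54.5, 42.5, 39.4 and 33.1 at 22 °C and 303, 292, 391 and 309 at 30 °C, higher by 2.92 ± 0.23 (limma adjusted p = 2.95e-07). In Cre-labelled libraries it went from 22.2, 37.0, 51.9 and 41.2 to 114, 172, 197 and 187 (2.14 ± 0.23, limma adjusted p = 1.29e-05), and at 30 °C it was lower than in controls (-0.97 ± 0.23, limma adjusted p = 0.0119). Strip2 rose in controls from the values above to 305, 332, 336 and 499.7 (2.63 ± 0.21, limma adjusted p = 3.14e-07). Adam11, a surface protein of the ADAM family without protease activity, rose from 85.3, 126, 106 and 130.1 to 542, 491, 612 and 426 (2.21 ± 0.23, limma adjusted p = 3.48e-06). Its 3 peaks lay 8.35 to 20.5 kb upstream.

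Mb, muscle myoglobin, read 79.6, 143, 64.5 and 63.2 in controls at 22 °C and 463, 398, 294 and 240.4 at 30 °C, a difference of 2.02 ± 0.49 (limma adjusted p = 0.00316). Mb is itself among the 20 skeletal muscle markers. Of these, 10 were higher at 30 °C in controls and 0 lower, against 22.9% and 22.7% of all genes. Their summed level, Mb included, was 1613 to 6191 at 22 °C and 12642 to 22148 at 30 °C. In Cre-labelled libraries the sum ran from 1569 to 42077 at 22 °C and from 939 to 36288 at 30 °C, and Mb differed by -0.02 ± 0.49 (limma adjusted p = 0.986). The part of muscle in the dissected tissue in these values was not tested.

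**Figure D5:**
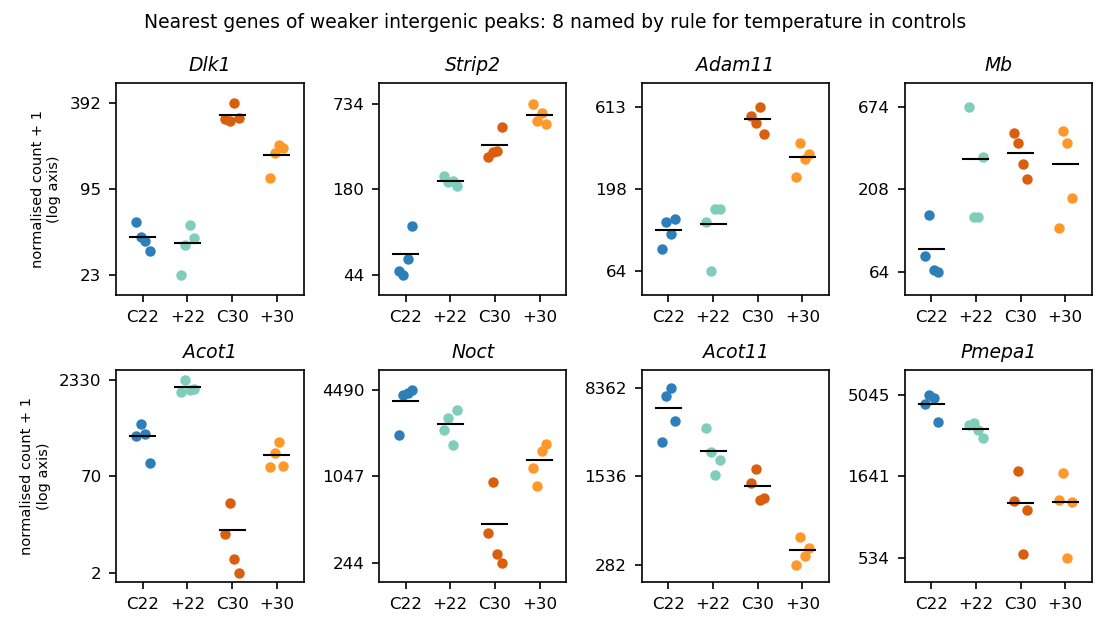
Normalised count + 1 on a logarithmic axis in each of the 16 libraries (points) with the group mean (line) for the 8 genes that the rule named for temperature in controls, 4 higher at 30 °C and then 4 lower; C22 and C30 are controls and +22 and +30 Cre-labelled libraries. All 8 genes have no overlap between C22 and C30, and Mb spans 118 to 476 in +30.

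The genes that the rule named as lower in the warm were Acot1, Acot11, Noct and Pmepa1. Acot1 went from the values at 22 °C to those at 30 °C given above, a difference of -5.40 ± 0.59 (limma adjusted p = 4.27e-06), and its difference in Cre-labelled libraries was -3.63 ± 0.59 (limma adjusted p = 2.54e-04). Acot11 read 2992, 7114, 8361 and 4447 in controls at 22 °C and 3878, 2455, 1585 and 2086 in Cre-labelled libraries. The difference of 30 °C minus 22 °C was -2.10 ± 0.31 in controls and -2.70 ± 0.31 in Cre-labelled libraries (limma adjusted p = 6.64e-05 and 1.77e-05). Noct, a deadenylase-like phosphatase with a daily rhythm, read 2104, 4143, 4313 and 4489 at 22 °C and 404, 943, 282 and 243 at 30 °C in controls (-3.16 ± 0.36, limma adjusted p = 6.04e-06). Pmepa1, a brake on TGF-beta signalling, read 4445, 5044, 4840.1 and 3462 against 1161, 1769, 562 and 1033 (-2.07 ± 0.31, limma adjusted p = 8.14e-05). In Cre-labelled libraries the temperature difference of Noct was -0.88 ± 0.36 (limma adjusted p = 0.0669). At 30 °C Noct was higher with the Cre label by 1.72 ± 0.36 (limma adjusted p = 0.0043), with groups that overlapped. The interaction of Noct was 2.28 ± 0.50 (limma adjusted p = 0.0591).

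For warmth in Cre-labelled libraries the rule took Mpeg1, Ccn1 and Fos as the genes that were higher. Other genes named here passed too, among them Ccl2, whose higher group averaged under 100 normalised counts (3.16, limma adjusted p = 1.92e-04). Mpeg1 read 302, 242, 163 and 188 at 22 °C and rose by 2.43 ± 0.29 (limma adjusted p = 2.40e-05). It is itself among the 20 macrophage markers, of which 18 were higher and 0 lower, against 15.0% and 17.7% of all genes. Fos, an immediate early transcription factor with 2 peaks, the nearer one 1797 bases upstream, read 29.9, 29.2, 35.5 and 58.4 at 22 °C and 265, 175, 1979 and 98.8 at 30 °C (3.04 ± 0.85, limma adjusted p = 0.0115). Ccn1, a matrix-bound signal induced early after stimulation, read 479, 391, 435 and 319 against 2009, 1479.6, 7958 and 909 (2.42 ± 0.46, limma adjusted p = 8.60e-04), with its peak 3622 bases upstream. Cre-labelled library 3 at 30 °C was the highest for both, and the summed level of 19 immediate early genes ran from 10717 to 38482 in its group. Without that library Fos was higher by 2.15 (limma adjusted p = 0.0403) and Ccn1 by 1.79 (limma adjusted p = 5.03e-04). Igsf21, a synaptic adhesion protein with a peak 4377 bases upstream, fell from 172, 146, 137 and 173 to 26.0, 48.4, 42.5 and 37.5 (-2.02 ± 0.20, limma adjusted p = 4.82e-06). In controls the same genes also differed with warmth: Mpeg1 by 1.62, Ccn1 by 1.66, Fos by 2.71, Ccl2 by 2.67 and Igsf21 by -1.27. The limma adjusted p was 3.46e-04, 0.00832, 0.0164, 4.48e-04 and 1.14e-04 in that order, and the control groups overlapped for Fos. None of these genes passed for the interaction.

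The difference between the Cre effects at the 2 temperatures passed the threshold for 1 of the 493 nearest genes (0.20%), Cd83. Over all genes tested 0.44% passed, 0.175% in the direction of Cd83 and 0.266% in the other. The interaction of Cd83 was 1.36 ± 0.28 (log2, SE, limma adjusted p = 0.042). At 22 °C it read 42.7, 37.0, 39.1 and 37.9 in controls and 45.4, 66.1, 44.0 and 48.4 in Cre-labelled libraries, 0.35 ± 0.20 apart (limma adjusted p = 0.285). The call was lost in 15 of its alternatives, where the limma adjusted p reached 0.111. An unadjusted limma p under 0.05 for the interaction was met by 84 of the 493 nearest genes (17.0%), against 10.5% of all genes. That limit makes no allowance for the number of genes tested, so it does not show an interaction in any of them.

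Lists of genes with known roles held a few of the nearest genes each, and these are given by list. Of the 24116 entries in the table, 3.21% were nearest genes of a weaker intergenic peak. For brown fat identity genes it was 3 of 28, namely Ppargc1a and Ppargc1b, the coactivators of mitochondrial biogenesis, and Zic1, a developmental marker of the depot. None of the 3 passed the threshold by Cre label, although 12 of the 27 tested members of that list were lower and 0 higher at 30 °C (median -0.56, against 0.01 over all genes). Ppargc1a read 515, 420.3, 322 and 465 in controls and 309, 431, 287 and 589 in Cre-labelled libraries at 30 °C (-0.13 ± 0.37, limma adjusted p = 0.87). It was lower at 30 °C than at 22 °C in controls (-1.60 ± 0.37, limma adjusted p = 0.00229), from 1092, 796, 1537 and 2077. Zic1 differed by -0.14 ± 0.21 by Cre label at 30 °C (limma adjusted p = 0.731). Ppargc1b read 1139, 807, 834 and 1084 against 462, 662, 873 and 679 (-0.55 ± 0.21, limma adjusted p = 0.0967).

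In fatty acid oxidation and thioesterases, 3 of 28 were nearest genes: Acot1, Acot11 and Etfa. Etfa, a subunit that carries electrons from acyl-CoA dehydrogenases, read 17596, 18553, 15199 and 19725 in controls and 9291, 11687, 9018 and 11317 in Cre-labelled libraries at 30 °C. It fell by 0.79 on the log2 scale (SE 0.15, limma adjusted p = 0.00241), and was lower at 22 °C as well (-0.78 ± 0.15, limma adjusted p = 0.00327). Its peak lay 60.5 kb downstream. In that list 4 of 28 were higher and 15 lower by Cre label at 30 °C (median -0.55). In lipogenesis and lipid droplets, Gpam and Lpl were 2 of 25. Lpl, the lipase that releases fatty acids from blood lipids, read 30909, 37037, 25077 and 29725 in controls and 19780.1, 22939, 22118 and 20474 in Cre-labelled libraries at 30 °C (-0.51 ± 0.19, limma adjusted p = 0.0946), with its peak 19.6 kb upstream in MTE-int.

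On a list of targets known to be repressed by BCL6 in other cells, 4 of 28 were nearest genes: Id2, Ccl2, Myc and Prdm1. At 30 °C 6 of the 24 tested members of that list were higher and 1 lower by Cre label (median 0.51), and the lower one was Id2. Id2, an inhibitor of helix-loop-helix factors with a peak 8038 bases upstream, read 623, 634, 469 and 506 in controls and 266, 300.2, 283 and 354 in Cre-labelled libraries. It fell by 0.89 on the log2 scale (SE 0.14, limma adjusted p = 5.34e-04), and at 22 °C, where it read 460.5, 460.0, 335 and 334 against 178, 187, 169.5 and 163, the difference was -1.17 ± 0.14 (limma adjusted p = 4.76e-05). Groups were apart at both temperatures. Ccl2, a chemokine that draws monocytes, read 29.4, 23.6, 24.6 and 98.4 in controls and 55.0, 45.9, 38.8 and 102 in Cre-labelled libraries at 30 °C (0.63 ± 0.50, limma adjusted p = 0.471). Myc and Prdm1 differed by -0.09 ± 0.24 and -0.03 ± 0.33 (limma adjusted p = 0.863 and 0.972).

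In insulin and IGF signalling the nearest genes were Insr, Irs1 and Pik3r1, 3 of 21. Insr read 1229, 1383, 1224 and 1269 in controls and 1597, 1539, 1353 and 1323 in Cre-labelled libraries at 30 °C, ranges that overlap (0.18 ± 0.10, limma adjusted p = 0.292). It was lower in warm than in cool controls, which read 1553, 2124, 2008 and 1929 (-0.57 ± 0.10, limma adjusted p = 4.39e-04). Irs1, the first adaptor below the insulin receptor, had a peak 2926 bases upstream and read 446, 564, 485 and 511 against 1638, 858, 2074 and 787. It rose by 1.30 ± 0.33 (limma adjusted p = 0.0148), and the call was lost without Cre-labelled library 1 or 3, where the limma adjusted p reached 0.0533. Pik3r1, a regulatory subunit of phosphoinositide 3-kinase, differed by 0.15 ± 0.37 (limma adjusted p = 0.853).

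Of the remaining lists, extracellular matrix had Adamts15 and Sparc, 2 of 30, and Sparc had another BCL6 peak as well. Sparc, a collagen-binding glycoprotein, read 16371, 16657, 16039 and 13444 in controls and 20624, 20163, 22149.7 and 21351 in Cre-labelled libraries at 30 °C (0.44 ± 0.11, limma adjusted p = 0.0161), a call lost without control library 4 at 30 °C and without the filter on low values (limma adjusted p up to 0.0726). Immediate early genes had Fos, Jun and Myc, 3 of 19, and 0 of these passed by Cre label at 30 °C, although 9 of 18 tested members of the list were higher there. Jun read 879.8, 705, 1426 and 1157 against 1810.1, 1618, 4397 and 1235 (0.99 ± 0.34, limma adjusted p = 0.0647). Nuclear receptors had Esr1 and Nr2f2, 2 of 30, with 4 other BCL6 peaks for Esr1 and 1 for Nr2f2. Nr2f2, an orphan receptor, differed by 0.17 ± 0.17 by Cre label at 30 °C (limma adjusted p = 0.597). Esr1, the oestrogen receptor, read 874, 769.8, 651 and 778 against 1041, 1104, 995 and 1123 (0.48 ± 0.14, limma adjusted p = 0.0382), a call lost in 8 of its alternatives. Macrophage and skeletal muscle markers had 1 of 20 each, Mpeg1 and Mb, and lymphocyte and endothelial markers had 0 of 13 and 0 of 14.

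The genes beside the highest scores and the shortest distances mostly did not pass the threshold by Cre label at 30 °C. Of the 5 nearest genes at a score of 9.83 that the rule for named genes took, Rsad2, Mis18a and Nrep could be tested. Rsad2, an antiviral interferon-induced enzyme, read 799, 288, 566 and 544 in controls and 1028, 578, 735 and 382 in Cre-labelled libraries at 30 °C (0.31 ± 0.30, limma adjusted p = 0.571). Mis18a, a centromere protein, differed by 0.16 ± 0.23 (limma adjusted p = 0.718). Nrep, a neuronal regeneration protein, differed by 0.65 ± 0.22 at 30 °C (limma adjusted p = 0.0641) and was higher by Cre label at 22 °C (1.06 ± 0.22, limma adjusted p = 0.00575), where it read 369, 293, 227 and 259 against 689, 418, 667 and 624. Of the closest, Zscan2 read 42.7, 43.7, 34.5 and 42.2 in controls and 22.2, 26.9, 19.9 and 14.9 in Cre-labelled libraries at 30 °C (-0.95 ± 0.30, limma adjusted p = 0.0461), a call lost in 11 of its alternatives. Rfc4, Cep70 and Tmem170b differed by -0.46 ± 0.19, -0.24 ± 0.16 and -0.13 ± 0.16 (limma adjusted p = 0.137, 0.388 and 0.657). Another BCL6 peak was also assigned to Rfc4 and to Tmem170b.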

How the data were processed

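RNA came from 16 libraries of interscapular brown fat, 4 per group, and the 924 peaks from 1 BCL6 ChIP-seq library of control fat at 30 °C. Per the submitters' processing notes, reads were handled with kallisto and DESeq2 for RNA and with Bowtie2 and HOMER for ChIP, on mm10, and no versions were given. The deposited RNA values are a normalised signal, counts divided by size factors, from which whole reads could not be recovered, so raw depth is unknown. The deposited peak score, distance and focus ratio (a fraction) come from HOMER's peak annotation, per the file headers. No source used here states the calling threshold or the control. Other ChIP libraries were not analysed here.

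Here log2(normalised count + 1) was fitted by limma (version 3.58.1, R 4.3.3) to the 16 libraries together, with 1 mean per group and a mean-variance trend (residual df 12, prior df 4.83). The 13176 of 24116 genes with a mean of at least 10 entered, and p-values were adjusted over all of them by the Benjamini-Hochberg method, with a threshold of 0.05. Log2 differences are on the log2(value + 1) scale, which understates changes of low genes. Each peak was given the gene named in the deposited annotation, matched by Entrez ID. Named genes were those past the threshold whose higher group averaged 100 or more with no overlap between groups (not asked of the interaction), leaving out predicted and unnamed genes: the 6 highest and 6 lowest by Cre label at 30 °C, 4 and 4 at 22 °C and by temperature in controls, and 3 and 3 by temperature in Cre-labelled libraries and for the interaction. To these came list members, up to 4 per list, the genes of the 5 highest-scoring and 5 closest peaks, genes with 4 or more peaks, and Bcl6. The members and lists were chosen with earlier results of these data known. Intervals on shares are exact Clopper-Pearson 95% intervals. The fit was checked on simulated data, and the membership rule, distance classes and motif search on a few made-up cases. The alternatives were another pseudocount, other filters, quantile normalisation, no trend, only the groups compared, a replicate block, other score and distance limits, genes with no other BCL6 peak (chosen after seeing the data), and leaving out each library or the 2 sparsest.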

Additional observations from a re-analysis of the deposited data

Results flagged for a closer look

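In 48 named genes, each of the 4 groups of 4 libraries was examined for a library that stood far from the other 3, which chance gives in about 1 in 20 groups. Of 192 groups, 19 had one, and all values here are normalised counts. In Cre-labelled library 3 at 30 °C, Fos stood at 1979, with the next library at 265, Ccn1 at 7958 (next 2009) and Cep70 at 98.0 (next 126.5). In Cre-labelled library 1 at 30 °C, Ppp1r3b stood at 739 (next 1518). Among controls at 30 °C, library 3 stood apart for Igsf21 at 86.4 (next 59.5) and Zscan2 at 34.5 (next 42.2), and library 4 for Strip2 at 499.7 (next 336), Ccl2 at 98.4 (next 29.4) and Zic1 at 80.2 (next 56.7).

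Among controls at 22 °C, library 1 stood apart for Etfa at 28743 (next 22081), Noct at 2104 (next 4143) and Lpl at 37733 (next 62647), and library 3 for Mpeg1 at 87.2 (next 122.5) and Irs1 at 1582 (next 746). In Cre-labelled libraries at 22 °C, library 2 stood apart for Lrrn4 at 415 (next 308) and Slc16a1 at 4238 (next 2465), library 3 for Rsad2 at 659 (next 399.8), and library 4 for Lpl at 49381 (next 34691) and Myc at 95.1 (next 76.0).

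Cd83 had different effects of the Cre label at the 2 temperatures, with an interaction of 1.36 on the log2 scale (limma adjusted p = 0.042).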

How the results depend on the processing

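Peak shares by distance class and in repeats stayed within their intervals with the score limit at 8 or 12. These sets hold mostly the same peaks, so the shares had little room to move. Counts of nearest genes past the threshold moved more. The share over all genes in each refit is not given here, so the counts do not show how the excess over all genes moved. By Cre label at 30 °C the 88 genes were 58 to 107 when 1 library was left out (42 higher were 30 to 53, 46 lower were 26 to 55), and 136 (64 higher, 72 lower) without the 2 sparsest libraries. At 22 °C the 69 genes were 43 to 100 (41 higher were 28 to 60, 28 lower were 15 to 40), and 30 (19 higher, 11 lower) with only the 2 groups fitted. By temperature the ranges were 211 to 256 of 246 in controls (121 to 144 higher, 86 to 112 lower) and 136 to 188 of 175 in Cre-labelled libraries (78 to 105 higher, 57 to 83 lower). Peaks within 50 kb of a start left 27 higher at 30 °C, 24 higher at 22 °C and 93 higher by temperature in controls. The 407 genes with no other BCL6 peak left 27 higher at each temperature by Cre label (6.63%, against 8.52% and 8.32% of all 493). The interaction's 1 gene became 0 to 5 on leaving out a library, 2 with a pseudocount of 5, 5 with quantile normalisation, 12 without the 2 sparsest libraries, and 0 with no filter, a mean of at least 50, peaks within 50 kb or genes with no other peak. The lower value of Etfa in warm controls, -0.39, reversed to 0.15 under quantile normalisation (limma adjusted p = 0.26). The cause was not tested. Only 1 ChIP library and an unknown raw depth limit all of these values.

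The replicate numbers gave no sign of pairing, though a weak pairing could be missed with 4 libraries per group. Of 24 same-numbered pairs 6 correlated above 0.1 (range -0.48 to 0.24), and 4 of 16 libraries correlated best with their own number. With the replicate block 82 genes passed by Cre label at 30 °C, 59 at 22 °C, 244 and 167 by temperature and 0 for the interaction.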

Other observations

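A few nearest genes outside the rule for named genes were picked after their values were seen. Ccnl1, with 3 peaks downstream, was higher by Cre label at 30 °C (0.95, limma adjusted p = 0.00149). Ly86, with 3 peaks of which one scored 8.58, rose with the warmer housing in controls (1.30, limma adjusted p = 0.00158) and in Cre-labelled libraries (1.48, limma adjusted p = 8.72e-04). Macrophage markers moved with it, 17 of 20 being higher with warmth in controls and 18 of 20 in Cre-labelled libraries, and their part in it was not tested. Gpi1, the glycolytic glucose-6-phosphate isomerase, was lower by Cre label at 30 °C (-0.56, limma adjusted p = 0.0301) and at 22 °C (-0.65, limma adjusted p = 0.0168). Igsf3, whose peak is printed in the report, averaged 33.5 in cool and 36.9 in warm controls and 20.5 and 41.5 in the Cre-labelled groups, with a temperature difference of 1.04 in the latter (limma adjusted p = 0.00348). Mapkapk2, a kinase below p38, was lower in warm than in cool controls (-0.81, limma adjusted p = 8.68e-04).

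The weaker intergenic peaks made up unequal shares of the list along the chromosomes. They were 61 of 160 peaks (38.1%) on chromosome 13, 50 of 134 (37.3%) on chromosome 16 and 60 of 165 (36.4%) on chromosome 8, against 56 of 228 (24.6%) on chromosome 11, 44 of 179 (24.6%) on chromosome 5 and 3 of 18 (16.7%) on X.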
